A study of Rattus norvegicus with 6 samples.

Results

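Acute-phase secreted proteins and the C/EBP factors that act with them were followed in neonatal rat cardiac fibroblasts (NRCFs). The genes were 9 by name, namely Pla2g2a, Slpi, Chi3l1, Ptx3, Lbp, Hp, Serpina3n, Cebpb and Cebpd, and were chosen by how far their counts differed between the groups below. Rows for 8 of these 9 were found among the 21857 gene symbols of the count tables, and all 8 were among the 12941 genes that passed the filter on low counts. Serpina3n is not analysed here. Because the choice rests on this same contrast, the differences of the 8 genes are given as a description without a test.

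RNA-seq was carried out on 6 libraries of NRCFs, primary cells grown from hearts of newborn Sprague-Dawley rats. The strain field of the sample labels reads "Noway" instead. In 3 libraries, with the genotype label WT, the cells had received the empty plasmid (Vector). In the other 3, labelled FTO overexpression, they had received a plasmid with the rat coding sequence of FTO, which removes the N6-methyladenosine mark from RNA. Both groups went through transfection, so no untransfected cells are among them. Nothing in the labels says that the 3 libraries of a group came from separate cultures or litters, and p-values therefore measure the spread between these libraries, which may be technical.

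The acute-phase response is the shift in secreted proteins that follows infection or injury. It is best known from the liver, where interleukin-6 acting through STAT3 and interleukin-1 acting through NF-κB raise the synthesis of carrier proteins, protease inhibitors and proteins that bind microbes. C/EBPβ and C/EBPδ, basic leucine zipper (bZIP) transcription factors, bind many of the same promoters, and C/EBPβ was first described as a nuclear factor for interleukin-6. Several of these genes are also used outside the liver, by fibroblasts, epithelia and myeloid cells.

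The promoters are shown for the members that have an entry in the RefSeq promoter table, because the genes differed in the same direction and the letters before the start site can be set beside that. The table (build GRCr8) held 4 of the 8 genes. The counts were made on another build, and no count was placed by these coordinates. Each sequence holds the 250 bases before the annotated start, 5′ to 3′ on the plus strand, and capitals mark matches to the motifs searched.
Pla2g2a, chr5:156359475-156359724: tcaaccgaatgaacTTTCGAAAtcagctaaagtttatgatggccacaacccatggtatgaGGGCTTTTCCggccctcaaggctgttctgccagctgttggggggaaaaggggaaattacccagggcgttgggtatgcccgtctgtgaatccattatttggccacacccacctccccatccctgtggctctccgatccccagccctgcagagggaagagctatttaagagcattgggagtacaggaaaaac
Ptx3, chr2:152797313-152797562: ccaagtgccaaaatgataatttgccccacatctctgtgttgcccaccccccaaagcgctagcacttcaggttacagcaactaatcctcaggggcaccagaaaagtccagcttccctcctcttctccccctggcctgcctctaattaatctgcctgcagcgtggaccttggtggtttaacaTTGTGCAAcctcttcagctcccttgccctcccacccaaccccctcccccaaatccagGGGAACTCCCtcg
Chi3l1, chr13:48193589-48193838: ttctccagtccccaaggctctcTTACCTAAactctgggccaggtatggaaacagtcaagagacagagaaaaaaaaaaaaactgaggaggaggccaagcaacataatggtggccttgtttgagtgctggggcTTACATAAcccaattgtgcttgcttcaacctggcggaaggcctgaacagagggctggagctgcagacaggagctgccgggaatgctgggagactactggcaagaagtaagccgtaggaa
Cebpb, chr3:176816755-176817004: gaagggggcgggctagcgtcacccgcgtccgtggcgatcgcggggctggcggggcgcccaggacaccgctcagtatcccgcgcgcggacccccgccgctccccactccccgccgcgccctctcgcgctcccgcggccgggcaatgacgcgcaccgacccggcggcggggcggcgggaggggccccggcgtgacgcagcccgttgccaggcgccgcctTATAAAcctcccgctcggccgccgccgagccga

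On both strands, 7 motifs were searched in these windows and in all 33469 windows of the table. A κB form that ends in TTCC was found in Pla2g2a as GGGCTTTTCC, at positions -190 to -181 from the start, and 4.53% of all windows held that form. The other κB form, which begins with GGGAA, was found in Ptx3 as GGGAACTCCC at positions -13 to -4, and 5.07% of all windows held that form. The C/EBP form TTNNGNAA was present in Pla2g2a, in Ptx3 and at 2 places in Chi3l1, but it is a loose pattern that 37.2% of all windows held. The TATA form TATAAA was found in Cebpb alone of the 4, with 12.9% of all windows holding it. The STAT form TTCNNNGAA (7.67% of all windows), the AP-1 form TGANTCA (6.34%) and the CRE form TGACGTCA (1.59%) had no match in the 4 windows. The Cebpb window was rich in G and C, at 80.0%, where the other 3 lay between 51.2% and 55.6% and the median of all windows was 51.2%. These matches describe letters only and were not tested as binding sites.

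The libraries held 13178952 to 17857999 counted reads, and a floor of 3 counts was worth 0.168 to 0.227 CPM (reads scaled to a common library size with TMM factors). Fto, the gene carried by the plasmid, averaged 88.3 ± 1.2 CPM in Vector and 92.3 ± 1.32 CPM in the FTO-labelled libraries (SD, n = 3 libraries). It did not pass the edgeR quasi-likelihood test (adjusted p = 0.239, and 0.182 to 0.45 under the alternatives). For that reason each direction below belongs to the FTO-labelled libraries and not to a rise of Fto mRNA measured in them. The authors checked the plasmid in such cells by qRT-PCR and at the protein level, and reported lower N6-methyladenosine by dot blot. These assays lie outside the libraries counted here. Of all 12941 genes tested, 65.9% passed at an adjusted p under 0.05, 33.2% as higher and 32.8% as lower in the FTO-labelled libraries, and 10.3% and 9.27% did so with a change of at least 2-fold. In 70.3% of genes the CPM ranges of both groups were apart, 35.5% with the FTO-labelled libraries on the higher side and 34.8% on the lower. A call is therefore common in these data, and counts below are read against these shares. The gene lists were chosen with earlier results of these data known, so their counts are a description only. A gene that passed the filter on low counts only through the libraries of a single group could be called only as higher in that group.

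All 8 members were higher in each FTO-labelled library than in each Vector library, as their choice would give. Together they accounted for 0.0186% to 0.0227% of reads counted in Vector libraries and 0.773% to 0.870% in the FTO-labelled libraries. The fitted log2 fold changes ran from 1.35 for Cebpd to 11.34 for Pla2g2a, and the secreted proteins all lay above the transcription factors. In bulk RNA, more cells of a type and more RNA per cell cannot be told apart.

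**Figure D1:**
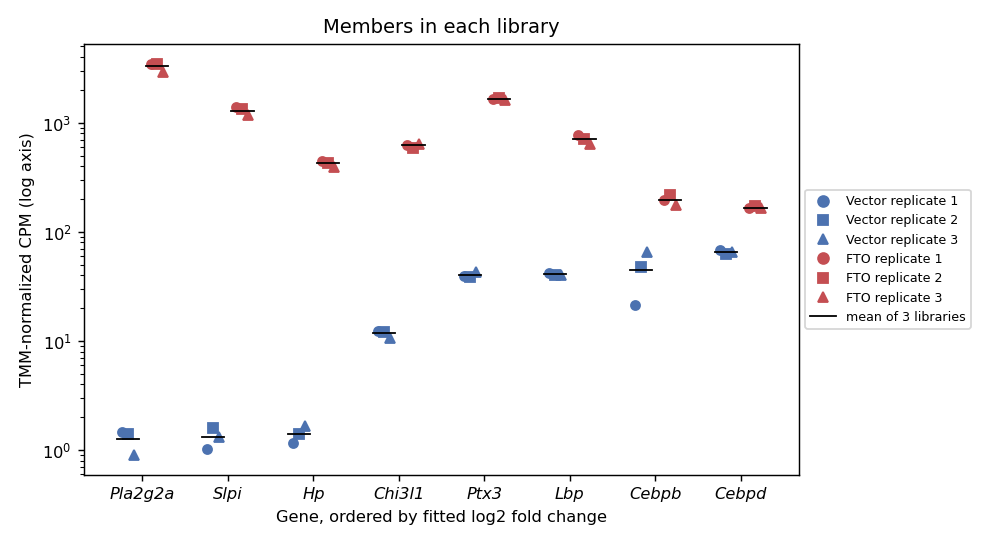
TMM-normalized CPM of the 8 members in each of the 6 libraries, on a log axis, with Vector in blue, FTO-labelled libraries in red and a bar at the mean of 3 libraries. Transcript length is not divided out, so heights are compared within a gene only. Pla2g2a, Slpi and Hp lay near 1 CPM in Vector, and Cebpb was the gene whose Vector libraries lay farthest apart, from 21.2 to 65.4 CPM.

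Pla2g2a encodes the secreted phospholipase A2 of group IIA, which cleaves bacterial membrane phospholipids. Its level was 1.46, 1.41 and 0.9 CPM in Vector replicates 1, 2 and 3 and 3481, 3421 and 2926 CPM in FTO replicates 1, 2 and 3. The gene was close to silent in Vector, with 13 to 21 counts per library, and it ranked 5 of 12941 genes by the size of its rise. The means were 1.26 ± 0.311 and 3276 ± 305 CPM (SD), the log2 fold change was 11.34 (SE 0.114), and the lowest FTO-labelled library was 1999-fold above the highest Vector library. Other fits gave larger SEs for this change, 0.207 with DESeq2 and 0.387 with limma-voom. Pla2g2a made up 0.395% to 0.782% of the members' counts in Vector and 37.9% to 40.0% in the FTO-labelled libraries.

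Other phospholipases A2 differed less, as the choice of Pla2g2a by its difference would give. Of 16 listed genes, the receptor Pla2r1 included, 9 had enough counts, of which 5 rose, 2 fell and 2 did not pass, with a median log2 fold change of 0.60 against 0.00 over all genes. Of all genes, 33.2% were higher and 32.8% lower. Pla2g5, the secreted enzyme of group V, rose from 1.4 ± 0.644 to 33.5 ± 1.07 CPM, with log2 fold change 4.55 (SE 0.161, edgeR adjusted p = 1.3e-12). Pla2r1, the receptor that binds secreted phospholipases, rose by 1.41, and the cytosolic enzyme Pla2g4a, which releases arachidonic acid, rose by 1.10 on the log2 scale. Pla2g16 also rose, by 1.15. The falls were smaller, -0.63 for Pla2g4b and -0.51 for the lysosomal Pla2g15. A further 6 genes of the list had at most 3 counts in each library.

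Slpi, the secretory leukocyte protease inhibitor, shields tissue from neutrophil elastase and other serine proteases. It was at 1.02, 1.61 and 1.32 CPM in the Vector replicates and at 1385, 1324 and 1171 CPM in the FTO replicates. As with Pla2g2a, the Vector libraries held few counts, 14 to 24 each, and the groups were far apart. The log2 fold change was 9.92 (SE 0.106, but 0.202 with DESeq2 and 0.33 with limma-voom).

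The list of protease inhibitors moved both ways. Of 22 inhibitors, 13 were tested, 5 rose and 6 fell, with a median of -0.03. With 33.2% of all genes higher and 32.8% lower, such a mixture is common in these data. Serpinb2, the plasminogen activator inhibitor of type 2, rose from 0.675 ± 0.225 to 1149 ± 99.1 CPM (log2 fold change 10.72, SE 0.117, edgeR adjusted p = 2e-18). Its Vector libraries held only 6 to 12 counts each. Serpinb2 passed the filter on low counts only through the FTO-labelled libraries, so it could be called only as higher. Serping1, the inhibitor of complement C1, rose by 4.98, the granzyme B inhibitor Serpinb9 by 1.23 and Spint2 by 0.69 on the log2 scale. Wfdc1, which shares the WAP domain with Slpi, was down from 24.3 ± 0.4 to 5.05 ± 0.817 CPM, at -2.26 on the log2 scale (edgeR adjusted p = 9.6e-11). Serpinb1a at -1.36 and Serpinf1, the pigment epithelium-derived factor, at -1.32 also fell. Thus the WAP gene Wfdc1 moved against Slpi, while Wfdc2 was at 3.2 ± 0.56 and 3.13 ± 0.25 CPM and did not pass.

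Lbp and Ptx3 bind microbes. Lbp, which hands bacterial lipopolysaccharide (LPS) to CD14, was at 41.6, 40.4 and 40.3 CPM in the Vector replicates and at 774, 715 and 641 CPM in the FTO replicates. Ptx3, the long pentraxin made locally by stromal and myeloid cells, was at 39.8, 38.4 and 42.9 CPM in the Vector replicates and at 1638, 1696 and 1598 CPM in the FTO replicates. Both were well counted in Vector, with at least 544 counts per library, and so their fold changes do not rest on counts near the floor. The log2 fold change was 4.12 (SE 0.0676) for Lbp and 5.35 (SE 0.0537) for Ptx3. The SD of the Vector libraries was only 1.71% of the mean for Lbp and 5.61% for Ptx3.

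The partners of Lbp in LPS recognition did not move with it as a list. Of 12 listed genes, 8 were tested, 3 rose and 4 fell, with a median of -0.56. Among all genes 33.2% were higher and 32.8% lower, so a mixed direction in so few genes is not read as a trait of the list. Ly96, Ticam1 and Cetp are not analysed here. Cd14, the LPS co-receptor, fell from 99.5 ± 2.34 to 59.6 ± 2.98 CPM (log2 fold change -0.74, edgeR adjusted p = 8.2e-09). Tlr4, the signalling receptor, rose from 17.4 ± 0.673 to 31.9 ± 2.82 CPM (0.88, adjusted p = 2.6e-07). Its adaptor Myd88 rose by 0.58 and the homologue Cd180 by 0.53, whereas the adaptor Ticam2 fell by 0.97 and Pltp, a lipid transfer protein of the same fold family as Lbp, fell by 1.33 on the log2 scale. Ly86, a partner of Cd180 with at most 1 count in each FTO-labelled library, was at least 5.13-fold lower. It passed the filter on low counts only through the Vector libraries, so it could be called only as lower. Macrophages are a known source of Cd14, and 9 of 10 macrophage markers fell in the same libraries, among them Csf1r (log2 fold change -3.96), C1qa (-5.31), Lyz2 (-3.52) and Cd68 (-1.13). Cd163 (-0.91) and Fcgr1a (-0.61) fell less. The marker Adgre1 went the other way, from 6.81 ± 1.52 to 31.7 ± 3.64 CPM (2.22, edgeR adjusted p = 8.4e-10). The part of macrophages in the falls of this list was not tested.

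Hp encodes haptoglobin, which captures free haemoglobin. It was at 1.17, 1.41 and 1.66 CPM in the Vector replicates and at 446, 428 and 396 CPM in the FTO replicates, a log2 fold change of 8.21 (SE 0.0927). Chi3l1, a chitinase-like lectin without enzyme activity, was at 12.3, 12.2 and 10.7 CPM in the Vector replicates and at 627, 592 and 639 CPM in the FTO replicates, a log2 fold change of 5.72 (SE 0.0625). Chi3l1 was the one member whose highest FTO library was replicate 3. In the other 7, FTO replicate 3 was the lowest of its group, as it was in 45.2% of the 4595 genes that lay higher in the FTO-labelled libraries without overlap.

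Among 17 relatives, receptors and partners of Ptx3, Chi3l1 and Hp, 11 were tested, 7 rose, 2 fell and 2 did not pass, with a median of 0.77. These counts are read against 33.2% of all genes higher and 32.8% lower. Among the rises, Nptx1 passed the filter on low counts only through the FTO-labelled libraries and could be called only as higher. Hpx, hemopexin, which binds free haem as haptoglobin binds haemoglobin, rose from 2.16 ± 0.261 to 130 ± 2.9 CPM (log2 fold change 5.91, edgeR adjusted p = 3.3e-17). Tnfaip6, a hyaluronan-binding protein that partners PTX3 in matrix, rose from 6.37 ± 0.876 to 47.9 ± 5.78 CPM (2.91). The haem oxygenase Hmox1 rose by 1.24 and the hyaluronan receptor Cd44 by 1.23. Cd163, the receptor for haptoglobin with haemoglobin and itself 1 of the 10 macrophage markers, fell by 0.91, and the neuronal pentraxin receptor Nptxr fell by 0.49 on the log2 scale. The short pentraxins Crp and Apcs, which the liver secretes, had at most 2 counts and 0 counts in any library.

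The other acute-phase proteins were split between genes that were counted and genes that were not. Of 19 other positive acute-phase proteins, 10 were tested, of which 7 rose, 1 fell and 2 did not pass, with a median of 4.12 on the log2 scale. The 7 are to be read against 33.2% of all genes, and the list was chosen with earlier results of these data known. Orm1 and Hamp passed the filter on low counts only through the FTO-labelled libraries, so they could be called only as higher. Genes of this kind raise the count and the median. Lcn2, lipocalin 2, which withholds iron from bacteria, was at 1.83, 1.68 and 3.05 CPM in the Vector replicates and at 3427, 3844 and 3180 CPM in the FTO replicates. Its log2 fold change of 10.63 (SE 0.12, edgeR adjusted p = 2.3e-18) lay between those of Pla2g2a and Slpi. Orm1, the carrier orosomucoid, known from 2 to 4 counts per Vector library, rose by 7.13, Hpx by 5.91 and complement C3 by 5.35. The 3 further rises, Serping1 (4.98), hepcidin (Hamp, 3.26) and the interleukin-1 receptor antagonist Il1rn (3.22), were picked for mention once their values were known. Saa4 fell from 27.9 ± 1.42 to 21.4 ± 0.235 CPM, and ceruloplasmin (Cp), at 267 ± 6.59 and 280 ± 25.0 CPM, did not pass (adjusted p = 0.3).

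Another 8 of the 19, among them the fibrinogen chains Fga, Fgb and Fgg, A2m, Crp and Serpina1, had at most 3 counts in each library of either group. The negative acute-phase proteins, which fall in the liver during the response, were mostly too low to test, 5 of 11 with at most 3 counts in each library. Of the 11, only Tf and Serpinc1 were tested, with Tf at 68.9 ± 1.7 and 78.6 ± 4.43 CPM (log2 fold change 0.19, edgeR adjusted p = 0.0082) and Serpinc1 at 4.2 and 2.72 CPM (-0.62, adjusted p = 0.011). The call of Serpinc1 was lost without Vector replicate 2 (adjusted p = 0.0575).

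**Figure D2:**
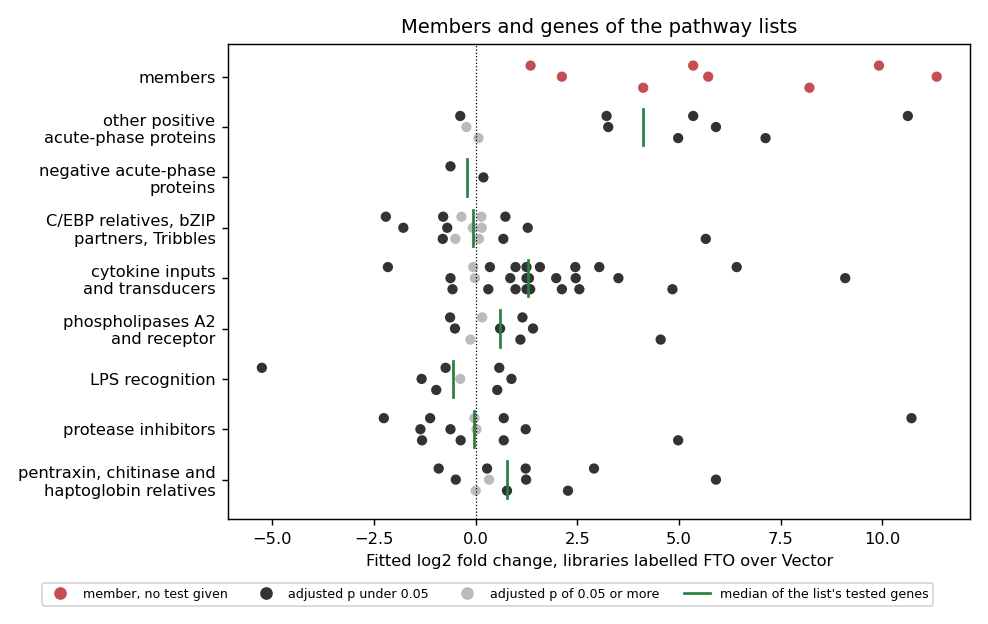
Fitted log2 fold change of the FTO-labelled libraries over Vector for the 8 members (red, no test given) and for the tested genes of 8 pathway lists, where black points passed the edgeR test at an adjusted p under 0.05, grey points did not, and green bars are list medians. The other positive acute-phase proteins had the highest median of the 8 lists, 4.12, and the LPS recognition genes the lowest, -0.56, the point far to the left there being Ly86, which had at most 1 count in each FTO-labelled library.

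Cebpd and Cebpb were the members that differed least. Cebpd was at 68.7, 62.6 and 64.8 CPM in the Vector replicates and at 165, 171 and 165 CPM in the FTO replicates, a log2 fold change of 1.35 (SE 0.0494). Cebpb was at 21.2, 48.1 and 65.4 CPM in the Vector replicates and at 196, 217 and 175 CPM in the FTO replicates, a log2 fold change of 2.12 (SE 0.223). The lowest FTO library was 2.4-fold above the highest Vector library for Cebpd and 2.68-fold for Cebpb. The ratio of Cebpb to Cebpd CPM was 0.309, 0.768 and 1.01 in the Vector replicates and 1.19, 1.27 and 1.06 in the FTO replicates. The ratio is not corrected for length, and only its change between libraries can be read. It was lowest in Vector replicate 1.

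Cebpb was the least reproducible of the members, and within the Vector group it stood apart from all other well counted genes. Its highest Vector library was 3.08-fold above its lowest, which ranked 1 of 5264 genes with a mean of at least 500 counts in Vector. The next gene in that order had a ratio of 1.59, and the median gene 1.06. The counts of Cebpb were 290, 717 and 944 in Vector replicates 1, 2 and 3, where Cebpd had 939, 933 and 936. In the FTO-labelled libraries the ratio for Cebpb was 1.24, which ranked 408 of 5618 genes. Without Vector replicate 1 the log2 fold change of Cebpb was 1.79, and without Vector replicate 3 it was 2.49. Cebpd had a ratio of 1.1 in Vector and 1.03 in the FTO-labelled libraries.

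**Figure D3:**
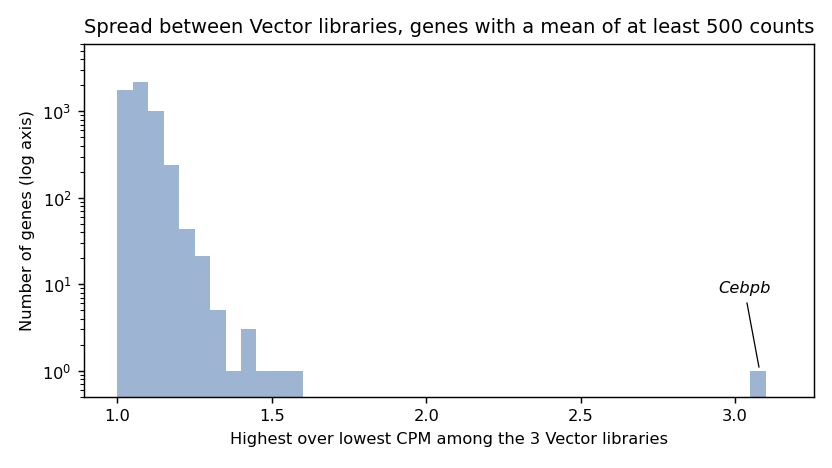
Histogram of the highest over the lowest CPM among the 3 Vector libraries for 5264 genes with a mean of at least 500 counts in Vector, with the number of genes on a log axis. The bulk lies near the median of 1.06, the second highest ratio is 1.59, and Cebpb lies alone at 3.08.

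The relatives of Cebpb and Cebpd did not share their direction. Of 17 C/EBP relatives, bZIP partners and Tribbles genes, 15 were tested, 4 rose, 5 fell and 6 did not pass, with a median of -0.07. These shares, 4 and 5 of 15, were near the 33.2% and 32.8% of all genes. Cebpa, the family member known from differentiated liver and fat cells, fell from 19.5 ± 1.28 to 11.2 ± 1.45 CPM (log2 fold change -0.80, edgeR adjusted p = 8.3e-06) and was named after its value was seen. Cebpg, a partner without an activation domain of its own, was at 103, 108 and 103 CPM in the Vector replicates and at 63.1, 59.1 and 57.4 CPM in the FTO replicates, a fall of 0.81 on the log2 scale. Ddit3 (CHOP), a stress-induced C/EBP partner, rose from 32.5 ± 0.794 to 79.2 ± 6.49 CPM (1.28, adjusted p = 1.8e-10).

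Of the bZIP factors and Tribbles genes, Atf5 fell from 349 ± 4.57 to 102 ± 7.4 CPM (-1.78, edgeR adjusted p = 1.2e-13) and Nfil3 rose by 0.68. Trib1, whose product leads C/EBPα to degradation, rose by 0.73, while Trib3, a target of the ATF4 stress pathway, fell by 2.21 on the log2 scale. Atf4 itself, named after its value was seen, fell by 0.70. The remaining call, Batf2, had at most 1 count in each Vector library and was at least 7.33-fold higher in the FTO-labelled libraries. It passed the filter on low counts only through the FTO-labelled libraries, so it could be called only as higher.

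**Figure D4:**
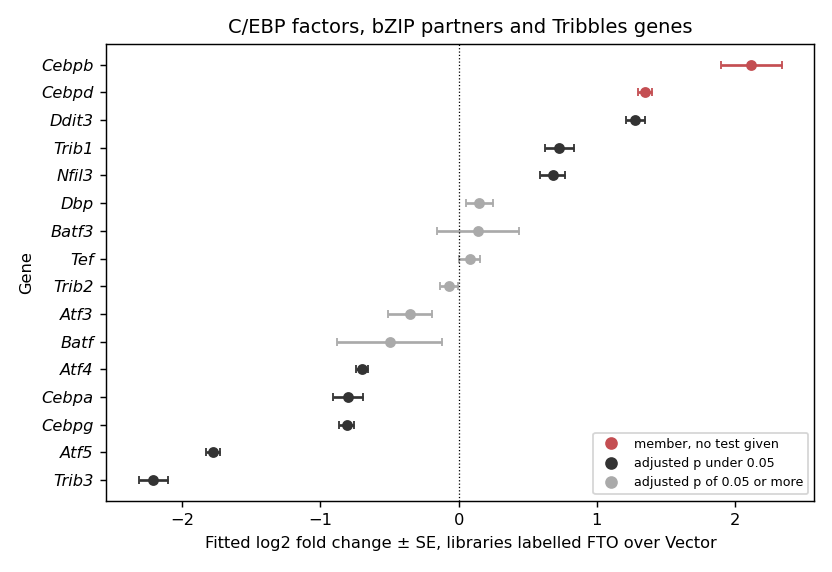
Fitted log2 fold change with its SE for Cebpb and Cebpd (red, no test given) and for their tested relatives other than Batf2, where black points passed the edgeR test at an adjusted p under 0.05 and grey points did not. Among the genes drawn, Cebpb (2.12) and Cebpd (1.35) lie at the top, a place that their choice by this contrast favours. Cebpa (-0.80) and Cebpg (-0.81) lie to the left of 0, and Trib3 (-2.21) is the lowest. Batf2, at least 7.33-fold higher in the FTO-labelled libraries, would lie above Cebpb and Cebpd.

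The cytokines and transducers that feed acute-phase genes were then examined. Of 27 listed genes, 26 were tested, 21 rose, 3 fell and 2 did not pass, with a median of 1.28, where 33.2% of all genes rose. The list was chosen with earlier results of these data known, so the count is a description only. Il6 was at 2.71, 1.74 and 1.59 CPM in the Vector replicates and at 56.3, 63.6 and 52.7 CPM in the FTO replicates (log2 fold change 4.84, SE 0.138, edgeR adjusted p = 9e-14). Il1b rose from 0.424 ± 0.334 to 36.6 ± 2.5 CPM (6.42, adjusted p = 6e-13). Il1a, with at most 1 count in each Vector library, was at 29.9 ± 0.687 CPM in the FTO-labelled libraries and at least 137-fold higher there. Il1a and Il1b passed the filter on low counts only through the FTO-labelled libraries, so they could be called only as higher. Tnf had 0 counts in all 6 libraries, which allows up to 3 counts in each.

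Further down the pathway, the NF-κB feedback gene Tnfaip3 rose from 8.43 to 96.0 CPM (log2 fold change 3.51, edgeR adjusted p = 2.9e-15). Named after their values were seen, the STAT3 feedback gene Socs3 rose by 2.55, the oncostatin M receptor Osmr by 2.46 and Stat3 by 0.98 on the log2 scale. The 3 falls were in Il6r (-0.57), the receptor chain specific to interleukin-6, in Il1rap (-0.62), the accessory chain of the interleukin-1 receptor, and in Osm (-2.16), which was known from a mean of only 14.2 counts per library. Osm passed the filter on low counts only through the Vector libraries, so it could be called only as lower.

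The genes whose pattern over the 6 libraries was most like that of a member were sought by the root mean square (RMS) difference between log2(CPM + 0.5) profiles, each centred on its own Vector mean. For Pla2g2a the nearest was Cfb at an RMS difference of 0.183, for Slpi it was Serpinb2 at 0.406, for Hp it was Steap4 at 0.151 and for Ptx3 it was Csf2rb at 0.094, followed by C3 at 0.104. For Cebpd it was Ifitm2 at 0.0149, with 221 ± 8.06 CPM in Vector and 563 ± 7.27 CPM in the FTO-labelled libraries. For Cebpb it was Sdcbp2 at 0.355. The names depend on the pseudocount, since with 2 CPM in place of 0.5 only 4 of the 16 pairs stayed, namely Cfb, Serpinb2, Csf2rb and Ifitm2 with their members.

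Markers of other cells were read beside these results, as several members are also made by liver, myeloid and epithelial cells. The 10 hepatocyte markers summed to 0.416 to 0.951 CPM in Vector and 0.68 to 1.01 CPM in the FTO-labelled libraries, and none had enough counts to be tested. Of 10 neutrophil markers, 3 were tested, with 2 higher and 1 lower, and the list summed to 2.56 to 3.22 CPM in Vector and 6.37 to 9.52 CPM in the FTO-labelled libraries. Camp averaged 0.0936 and 5.36 CPM, at least 24.5-fold higher, S100a8 rose by 2.75 on the log2 scale, and Mmp8 was at least 7.13-fold lower. Camp and S100a8 passed the filter on low counts only through the FTO-labelled libraries, and Mmp8 only through Vector. Each could therefore be called in that direction only. The granule genes Mpo, Elane and Ltf had 0 counts in all libraries. Macrophage markers mostly went the other way from the members, with 9 of 10 lower, 1 higher (Adgre1) and a sum of 1684 to 1745 CPM in Vector and 246 to 278 CPM in the FTO-labelled libraries. Epithelial or mesothelial markers summed to 27.9 to 29.5 and 121 to 131 CPM, with 4 of 6 tested genes higher, 1 lower and 1 that did not pass. Among the rises, Krt18 passed the filter only through the FTO-labelled libraries and could be called only as higher. Mesothelin (Msln), at 2.83 and 87.1 CPM, made up the larger part of the difference in the sum, whereas the mesothelial marker Upk3b fell from 4.61 to 2.58 CPM (log2 fold change -0.82, edgeR adjusted p = 0.0016). Cardiomyocyte markers were higher in 7 of 8 and endothelial markers in 4 of 5 tested genes. The counts of all these marker lists are read against 33.2% of all genes higher and 32.8% lower. The 10 fibroblast markers were all counted in both groups, with 5 higher and 5 lower and a sum of 40483 to 41394 CPM in Vector and 21207 to 22578 CPM in the FTO-labelled libraries. The part of these cell types in the members' levels was not tested.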

How the data were processed

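For each of 3 Vector and 3 FTO libraries the authors deposited unnormalized read counts by gene symbol. The submitters' processing notes list Trimmomatic and the build rn6. The aligner, the counting program, the gene models and strand handling are not given in the sources used here, so reads shared with near-identical, overlapping or antisense genes are uncertain. Genotype labels gave the groups, and titles gave the replicate numbers. Depth is given with the results, and floors cover counting error only.

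Genes were kept with filterByExpr of edgeR 4.0.16 at a minimum count of 10, scaled by TMM and compared over all 12941 genes by the quasi-likelihood test (glmQLFit, glmQLFTest, two-sided, no covariate) in R 4.3.3, with Benjamini-Hochberg adjustment over all genes. Each SE was the log2 fold change divided by the root of F. The procedure was tested on simulated counts in which few genes changed, and by small amounts. That test does not cover changes as widespread or as large as those in these libraries. The members and the gene lists were chosen with earlier results of these data known. Named genes are the members, Fto and, per list, up to 4 rises and 3 falls that passed at 0.05, did not overlap in CPM and averaged 20 counts or more, plus the 2 nearest genes per member. Alternatives were DESeq2 1.42.0, limma-voom (limma 3.58.1), other scalings and filters, a prior count of 2, a 2-fold call rule, the replicate number as a block, and leaving out each library.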

Additional observations from a re-analysis of the deposited data

How the results depend on the processing

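The direction of all 8 members was the same under each alternative run. Their log2 fold changes ranged over 11.1 to 11.5 (Pla2g2a), 9.77 to 10.1 (Slpi), 8.09 to 8.34 (Hp), 5.65 to 5.75 (Chi3l1), 5.31 to 5.39 (Ptx3), 4.05 to 4.19 (Lbp), 1.79 to 2.49 (Cebpb) and 1.32 to 1.39 (Cebpd). Over all genes, 8531 passed, against 7795 with DESeq2, 9009 without a filter and 7902 to 8719 with single libraries left out. When a call also needed a 2-fold change, fewer list genes passed by construction: 0 lower among other positive acute-phase proteins, 0 higher and 0 lower among the negative ones, 2 higher and 2 lower among C/EBP relatives, 1 lower among cytokine genes, 0 lower among phospholipases, 0 higher and 2 lower in LPS recognition, 3 higher among protease inhibitors, and 0 lower among the pentraxin, chitinase and haptoglobin relatives. The same rule left 16 higher among cytokine genes, 4 higher among phospholipases, 4 lower among protease inhibitors and 5 higher among the pentraxin, chitinase and haptoglobin relatives. Without a filter on low counts, 2 negative acute-phase proteins were called higher in place of 1, as more genes were tested. When single libraries were left out, the number of these called lower ran from 0 (without Vector replicate 2) to 1. Of 44 single genes followed, Serpinc1 there was the 1 call lost, and no sign changed. With a pseudocount of 2 CPM, 4 of 16 nearest pairs stayed, and for the genes listed near 0 in Vector the distance depends on that constant. Same-numbered libraries were not treated as paired. Their deviations from group means had correlations of 0.00284, -0.0693 and 0.0207, and not every library correlated best with its own number. With 3 libraries per group, such values cannot tell whether the libraries were prepared as pairs. With the replicate block 8399 genes passed, no call among the 44 genes changed, and 1 list count did (6 in place of 7 relatives of Ptx3, Chi3l1 and Hp rose). That count was 6 also with DESeq2, with limma-voom, and without Vector replicate 1, Vector replicate 2, FTO replicate 1 or FTO replicate 2. C/EBP relatives called lower were 6 in place of 5 in several alternatives, among them without Vector replicate 1 and without FTO replicate 3. Depth limits the genes with few counts in Vector, among them Pla2g2a, Slpi and Hp, whose fold changes rest on 13 to 24 counts per Vector library.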

Other observations

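Among well counted genes of the libraries labelled FTO, the widest spread was that of Psmd14, a proteasome subunit, which was chosen after its value was seen. It was at 18.7, 10.2 and 104 CPM in FTO replicates 1, 2 and 3 and at 90.6, 92.5 and 75.5 CPM in the Vector replicates. Its highest FTO library was 10.2-fold above its lowest, where the next gene reached 2.06-fold and the median of 5618 genes was 1.09-fold. In Vector the same place was held by Cebpb. No sample stood apart in both genes, as the low Cebpb value was in Vector replicate 1 and the low Psmd14 values were in FTO replicates 1 and 2.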
